A study of Mus musculus with 6 samples.

Results

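Enzymes that deaminate bases in RNA or DNA, and cofactors that guide them, are described here through 9 of the 41255 genes listed in an RNA sequencing table of Ba/F3 cells. They are Apobec1, Apobec2 and Apobec3 of the APOBEC family, the APOBEC1 cofactors A1cf and Rbm47, the double-stranded RNA adenosine deaminases Adar and Adarb1, and the tRNA adenosine deaminases Adat1 and Adat2. All 9 symbols were found in the table. These genes were selected on their differences between R98S and WT in these same libraries, so those differences are given as sizes with errors and without a test for the individual gene. How many of them passed the threshold is stated once, as a description beside the share of all genes that did.

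Ba/F3 is a mouse lymphoid line that needs interleukin-3 to grow. The cells carried a retroviral human RPL10 cDNA, either WT or R98S, a change in a protein of the large ribosomal subunit that occurs in T-cell leukemia, and in all of them mouse Rpl10 was targeted by a short hairpin RNA. Each library came from 1 monoclonal culture grown from a single cell, with WT clones 28, 29 and 36 and R98S clones 11, 13 and 35, so that genotype was compared over 3 clones a group and any clone-specific difference is part of the spread. All cultures were given 100 µg/ml cycloheximide, a blocker of translation elongation, for 5 min, and polyadenylated RNA was sequenced.

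APOBEC proteins are zinc-dependent cytidine deaminases that turn cytosine into uracil. APOBEC1 edits messenger RNA, classically the apolipoprotein B transcript of the small intestine, and is brought to its targets by RNA-binding cofactors such as A1CF and RBM47, whereas APOBEC3 acts on the DNA copies of retroviruses and retroelements. ADAR enzymes turn adenosine into inosine in double-stranded RNA, which among other things keeps cellular RNA from triggering antiviral sensors. The ADAT enzymes make inosine in transfer RNA, ADAT1 next to the anticodon of alanine tRNA and ADAT2, together with ADAT3, at the wobble position. All of these reactions act on nucleic acid sequence. The values here are messenger RNA levels of the enzymes, not editing.

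Short stretches of sequence show where transcription of the 2 members with the clearest changes is annotated to begin, from RefSeq on GRCm38.p6 and written 5′ to 3′ in the direction of the gene. The first is the 30 bases just before the annotated start of Apobec1, at chr6:122602445-122602474 on the minus strand. The second lies 150 to 121 bases before the RefSeq start of Apobec3, at chr15:79892258-79892287 on the plus strand, and its capitals mark a match on the opposite strand to the core of the interferon-stimulated response element (GAAA, any 2 bases, GAAA).
Apobec1: ctgctggtaaagccccgcctcctgctcgcc
Apobec3: catcagttagTTTCCCTTTCtctttgcgat
Searched on both strands in the 250 bases upstream, this motif was present in 2.98% of 32851 RefSeq promoters of mouse genes. The GATA motif AGATAA, searched in the same way and chosen because Gata2 is abundant in these cells, was present in 9.99%. Of the 9 genes, 8 were in the promoter table with 13 promoters, and 2 promoters held a match, the one of Apobec3 shown above and an AGATAA of Adat2. The matched stretch of Apobec3 also lies in an exon of a noncoding transcript of the same gene. A match describes letters only.

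Library depth ranged from 21786776 to 24204991 reads, and a count of 3 reads, taken here as the floor, was worth a normalised read count of 2.78 to 3.22. A normalised read count is the number of reads of a gene divided by a size factor of its library. Mouse Rpl10 ranged from 1883 to 3156 over the 6 clones, with no difference detected between genotypes (log2 fold change -0.07, limma adjusted p = 0.871), and the share of its reads that came from the human cDNA was not determined. The 4 markers of the interleukin-3 receptor and of leukocytes were abundant, with a summed count of 98118 to 118045 in WT and 134077 to 158695 in R98S. The higher sum came from Csf2rb and Csf2rb2, whereas Ptprc, the pan-leukocyte marker CD45, fell by 1.33 on the log2 scale, from 11217 ± 2636 in WT to 4471 ± 1148 in R98S (limma adjusted p = 0.00894). The 11 markers of B cell precursors summed to 1294 to 1409 in WT and 1645 to 1964 in R98S, but only Cd79a and Cd79b had a mean of at least 10, and 6 had no more than 3 reads in any library, so the lymphoid label rests on few of them. Markers of liver and intestine, the tissues best known for Apobec1, summed to 8.19 to 10.7 in WT and 10.2 to 18.8 in R98S, with Fabp1 and Fabp2 at 0, and those of fibroblasts and epithelium to 4.10 to 18.3 and 8.33 to 17.4. T-cell markers summed to 52.2 to 106 in WT and 152 to 179 in R98S. Cd3d and Lck carried that sum, with means of 13.3 and 42.6 in WT and 63.8 and 94.3 in R98S, while Cd3e had no more than 3 reads in any library and Cd3g went the other way, with 3.07, 3.22 and 43.0 in WT and 0.938 to 1.85 in R98S. Markers of mast cells and basophils, mostly Gata2, summed to 25269 to 29818 in WT and 13994 to 17555 in R98S. Gata2 carried the lower sum, with means of 27299 in WT and 15106 in R98S. Ms4a2 also had a lower mean (105 and 73.0), whereas Cpa3 (71.5 and 192), Mcpt8 (23.2 and 37.6) and Hdc (108 and 114) had higher ones. The clones overlapped for each of these apart from Gata2, and Kit and Fcer1a had at most 1.02. The part of these marker differences in the values that follow was not tested. In bulk libraries, fewer cells of a type and less RNA per cell cannot be told apart.

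Apobec1 messenger RNA was nearly lost from the R98S clones. Its gene lies on chromosome 6, from 122577792 to 122602444 on the minus strand (GRCm38). WT clones 28, 29 and 36 had normalised read counts of 348, 333 and 408, whereas R98S clones 11, 13 and 35 had 12.2, 9.19 and 8.33, and this order of clones is kept throughout. Every WT clone was far above every R98S clone, and the R98S values still exceeded the floor. The mean was 363 ± 39.8 in WT and 9.90 ± 2.03 in R98S (SD, n = 3), a ratio of 36.7. On the log2(normalised count + 1) scale the difference was -5.07 ± 0.24 (SE), with a 95% interval from -5.63 to -4.51, and it ranked 32 from the lowest of the 11550 genes tested. This scale understates changes of genes near the floor, and with a pseudocount of 5 the difference was -4.63.

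Macrophages also express Apobec1, so their markers are given beside it. The 4 macrophage markers listed summed to 165 to 270 in WT and 90.1 to 251 in R98S, ranges that overlapped. Csf1r, the receptor of their growth factor, had 4.0 to 5.37 in WT and 2.04 to 6.48 in R98S. Cd68 made up most of the sum, with 156, 237 and 179 in WT and 82.6, 249 and 126 in R98S. It was not called (limma adjusted p = 0.454). Mrc1 had 0 to 2.15 in WT and 0 to 2.78 in R98S. Lyz2, which encodes lysozyme, was lower in R98S, with 4.10, 24.7 and 43.0 in WT and 0.938, 0 and 1.85 in R98S (log2 fold change -3.34, limma adjusted p = 0.0366). All R98S values of Lyz2 were under the floor. Its WT level alone carried it past the mean of 10 needed for the test. The part of such cells in the Apobec1 difference was not tested.

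**Figure D1:**
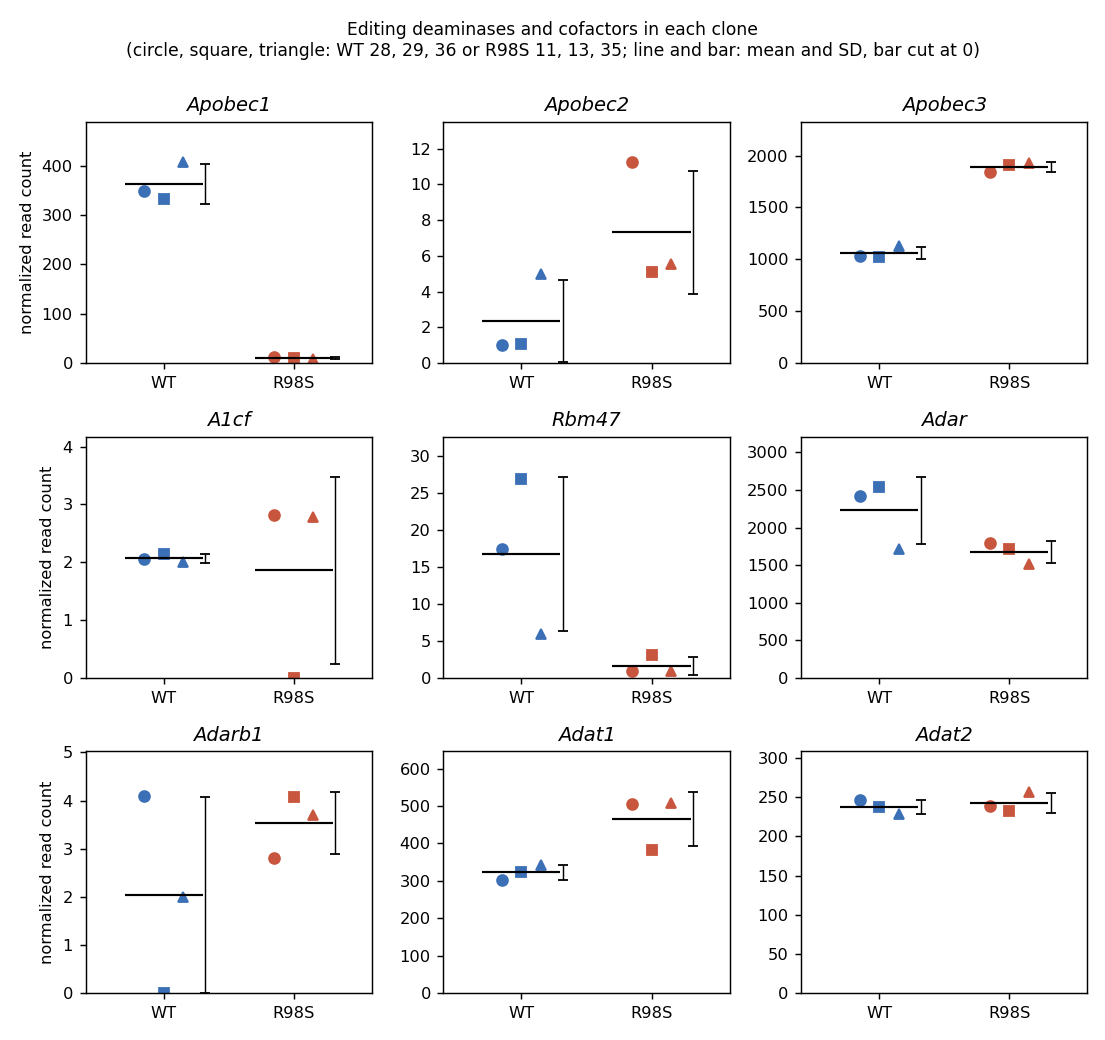
Normalised read count of each of the 9 genes in each clone, with 1 panel and 1 linear axis from 0 per gene. Points are clones (circle, square and triangle for clones 28, 29 and 36 in WT and 11, 13 and 35 in R98S), lines are group means and bars are SD, cut at 0. Apobec1 sits between 333 and 408 in WT and between 8.33 and 12.2 in R98S, Apobec3 and Adat1 are higher in every R98S clone, and the groups overlap for Adar and Adat2.

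The cofactors of APOBEC1 were weakly expressed. RBM47 is an RNA-binding protein that can serve as an editing cofactor, and its gene on chromosome 5 had normalised counts of 17.4, 26.9 and 6.0 in WT and 0.938, 3.06 and 0.925 in R98S. The groups did not overlap, although the lowest WT clone was close to the floor and every R98S clone was at or under it. Its reads summed to 48 in WT and 5 in R98S, a WT to R98S ratio of 10.3 with an exact 95% interval of 4.13 to 33.2 that covers counting error only. With a mean of 9.20 over the 6 libraries, Rbm47 was just under the minimum of 10 for the test and has no fitted change with this filter. It shares 276 exonic bases with the noncoding gene Gm43323 on the same strand, whose reads could not be separated from it here.

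A1CF, the first cofactor described for APOBEC1, is encoded on chromosome 19. A1cf had 2.05, 2.15 and 2.0 normalised counts in WT and 2.81, 0 and 2.78 in R98S, that is 6 reads in each group. Both groups were at or under the floor, so no fold change is given, and A1cf could not be told from the floor at this depth.

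Other proteins reported to bind APOBEC1 or its editing complex were abundant and showed no called change. None of the 6 listed partners (Syncrip, Celf2, Hnrnpab, Khsrp, Dnajb11 and Bag4) passed an adjusted p of 0.1 in limma, while 1 had an unadjusted p under 0.05. The share called by limma over all genes tested was 23.9%. edgeR called 0 and DESeq2 called 1, Hnrnpab, whose log2 fold change was 0.25. The median log2 fold change of the list was 0.07, beside -0.01 over all genes tested.

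Of the genes outside the 9, the 3 whose log2 values ran most closely with Apobec1 over the 6 libraries were Ank3, Lmna and Kcnk1, each with a Pearson r of 0.998. Ank3, which encodes the membrane-skeleton adaptor ankyrin G, had 312, 339 and 377 in WT and 15.0, 9.19 and 7.40 in R98S. Lmna, which encodes the nuclear lamins A and C, had 2663, 2573 and 2546 in WT and 752, 746 and 690 in R98S. Kcnk1, a potassium channel gene, had 49.2, 38.7 and 53.0 in WT and 0 in every R98S clone. With 6 points in 2 separate groups, such a value mostly reflects the gap between genotypes, and 25 genes tested exceeded 0.99 and 282 exceeded 0.95.

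Apobec3, the single APOBEC3 gene of the mouse, was higher in R98S. It spans 79891659 to 79915906 on the plus strand of chromosome 15. Normalised counts were 1034, 1025 and 1131 in WT and 1839, 1908 and 1930 in R98S. The R98S clones lay close together, all above the WT clones. Means were 1063 ± 58.6 and 1892 ± 47.4 (SD, n = 3), which is 1.78 times as much and 0.83 ± 0.10 (SE) higher on the log2 scale. Leaving out any 1 clone gave 0.81 to 0.88. Apobec3 shares 676 exonic bases with D730005E14Rik on the same strand, a gene not analysed here, and 100 with Cbx7 on the opposite strand, which had 9.19 normalised counts at most.

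Apobec2 encodes a muscle-enriched member of the family with no established editing target. On chromosome 17, it had 1.02, 1.07 and 5.0 normalised counts in WT and 11.3, 5.10 and 5.55 in R98S. The groups did not overlap, but WT clone 36 and R98S clone 13 were almost level. Reads summed to 7 in WT and 23 in R98S, a ratio of 3.05 with an exact 95% interval of 1.27 to 8.43 for counting error only, and the gene was too low for the test.

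Adar was the most abundant of the adenosine deaminases per length, and its mean was lower in R98S with clones that overlapped. The gene on chromosome 3 had normalised counts of 2425, 2544 and 1715 in WT and 1796, 1718 and 1514 in R98S. WT clone 36 fell among the R98S clones, below 2 of them, while the other WT clones stood above all of them. In a companion dataset, the authors excluded a total RNA library of WT clone 36 that grouped with R98S in a principal component analysis. For the dataset used here, the paper reports that such an analysis separated R98S from WT. Whether the exclusion bears on the values here was not tested. Means were 2228 ± 448 and 1676 ± 146 (SD, n = 3), and the log2 fold change was -0.39 ± 0.16 (SE) with a 95% interval from -0.77 to -0.02. Without WT clone 36 the log2 fold change was -0.57, and over the 6 fits that left out 1 clone it was -0.57 to -0.29. Adar overlaps Chrnb2 on the opposite strand over 1365 exonic bases. Chrnb2 had 95.2, 84.9 and 191 in WT and 266, 146 and 261 in R98S, and whether reads were counted by strand is not given in the sources used here.

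Adarb1, the second catalytically active ADAR gene, acts mainly in neurons. Its normalised counts on chromosome 10 were 4.10, 0 and 2.0 in WT and 2.81, 4.08 and 3.70 in R98S. Reads summed to 6 and 11, an R98S to WT ratio of 1.70 with an exact 95% interval of 0.578 to 5.61, so no difference was detectable at this depth.

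The tRNA deaminases differed from each other. Adat1, on chromosome 8, had 303, 323 and 343 normalised counts in WT and 507, 383 and 509 in R98S. All R98S clones exceeded the WT clones, with clone 13 nearest to them. Means were 323 ± 20.1 and 466 ± 72.2 (SD, n = 3), which is 1.44 times as much and 0.52 ± 0.16 (SE) higher on the log2 scale. Leaving out any 1 clone gave 0.45 to 0.65.

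Adat2, the catalytic subunit of the wobble deaminase, is on chromosome 10 and had 247, 237 and 228 in WT and 238, 233 and 257 in R98S. The clones of both genotypes were interleaved. The log2 fold change was 0.03 ± 0.15 (SE), and its 95% interval ran from -0.31 to 0.37. Adat3, its partner subunit, had 66.6, 55.9 and 42 in WT and 59.1, 44.9 and 49.0 in R98S, and its log2 fold change of -0.09 ± 0.27 was not called (limma adjusted p = 0.853).

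**Figure D2:**
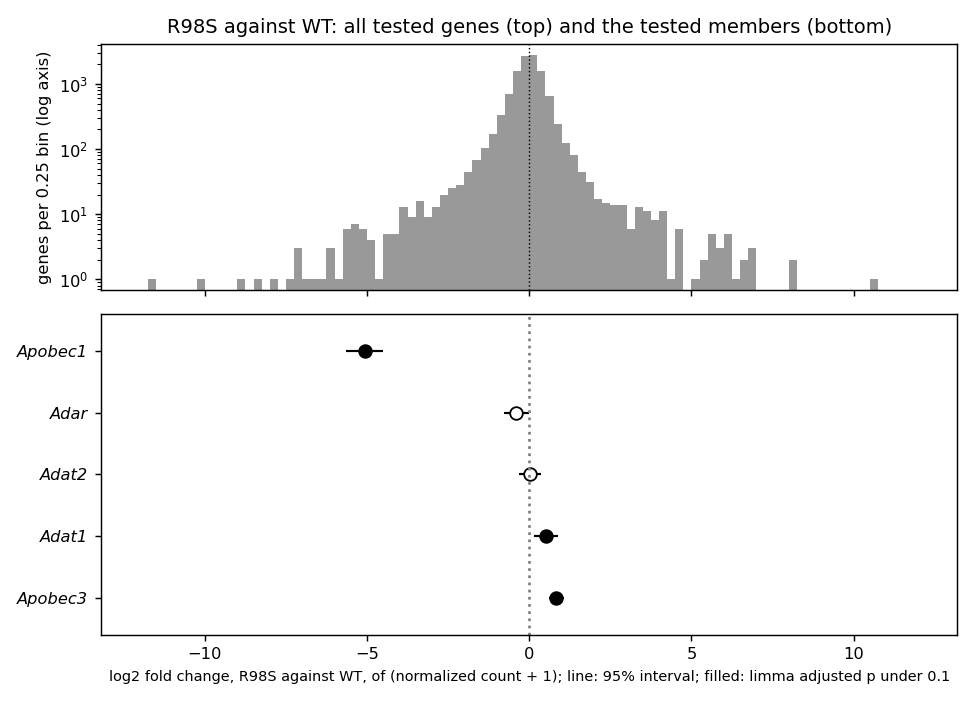
Log2 fold change of R98S against WT on the log2(normalised count + 1) scale, as a histogram of the 11550 genes tested (top, log axis) and for the 5 members with a mean of at least 10 with 95% intervals (bottom, filled where called). Apobec1 is at -5.07, Apobec3 at 0.83 and Adat1 at 0.52, whereas the interval of Adar nearly reaches 0 and that of Adat2 spans it.

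In counts, 5 of the 9 genes passed the minimum mean of 10 and 3 of those 5 were called at an adjusted p under 0.1, Apobec3 and Adat1 higher and Apobec1 lower. Over all 11550 genes tested, 23.9% were called, 10.7% higher and 13.1% lower in R98S. The clones of the 2 genotypes did not overlap for the 3 called genes, and for 37.3% of all genes tested. The count of members was 2 without WT clone 28 or 29 or R98S clone 11, and 4 without WT clone 36 or R98S clone 13. Adat1 was not among the genes called in the fits with 2, nor without R98S clone 35, where Rbm47 was. In the fits with 4 the added gene was Adar without WT clone 36 and Rbm47 without R98S clone 13. DESeq2 on the recovered reads also called 4, with Adar added. At an adjusted p under 0.05 limma called 2, Apobec1 and Apobec3. With no expression filter it called 3, with Rbm47 in place of Adat1. Because the genes were selected on this contrast, nothing is read from these counts. Apobec1 passed the minimum mean through its WT level alone, as did Rbm47 in the fits without R98S clone 13 or 35. The median log2 fold change was 0.03 over the 5 and -0.01 over all genes tested.

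Levels can be set between genes only per length, here as normalised count per kilobase of the principal transcript. In WT the order was Adar (594 ± 119), Apobec3 (451 ± 24.8), Adat2 (162 ± 6.35), Apobec1 (160 ± 17.6) and Adat1 (102 ± 6.36), followed by Rbm47 (3.22), Apobec2 (1.67), A1cf (0.605) and Adarb1 (0.310). Adat2 and Apobec1 did not differ beyond their spread, and Adar in clone 36 lay within the range of Apobec3. In R98S the order was Apobec3 (802 ± 20.1), Adar (446 ± 38.8), Adat2 (166 ± 8.75) and Adat1 (148 ± 22.8), then Apobec2 (5.14) and Apobec1 (4.37 ± 0.897), with A1cf (0.546), Adarb1 (0.539) and Rbm47 (0.315) last. Adat2 and Adat1 overlapped there, as did Apobec2 and Apobec1. Apobec1 thus stood level with a tRNA deaminase in WT and among the barely expressed genes in R98S. The order of the upper genes depends on the length used. Over all annotated exonic bases Adar had 274 per kilobase in WT and 206 in R98S, Apobec3 had 112 and 200, and Apobec1 had 134 and 3.67, so that on this scale Apobec1 exceeded Apobec3 in WT.

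**Figure D3:**
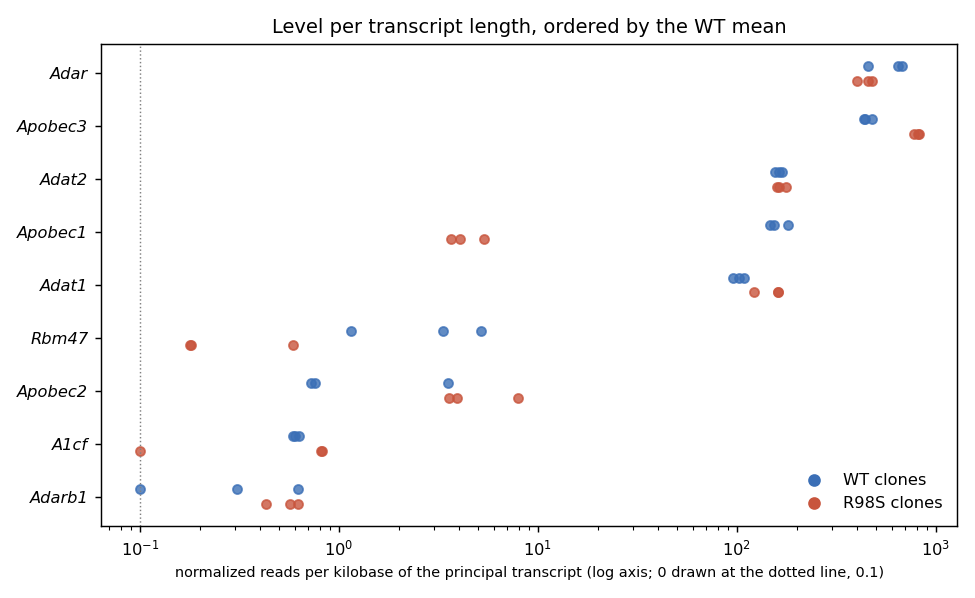
Normalised count per kilobase of the principal transcript (log axis) for the 9 genes in the 6 clones, with WT and R98S in separate colours and values of 0 drawn at the dotted line. Apobec1 moves from 160 per kilobase in WT, beside Adat2, to 4.37 in R98S, and Apobec3 from 451 to 802.

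Genes next to the members were examined for changes shared along the chromosome, as the 2 tested genes on each side. Of these 20 neighbours, 4 were called, beside 23.9% of all genes tested, so the count does not stand out from the background. Their median log2 fold change was 0.11. Around Apobec1, Gm8430, Phc1 and Gm10420 had log2 fold changes of 0.36, -0.03 and 0.39 without a call. Slc2a3, a glucose transporter gene 150 kb away, fell by 1.27 on the log2 scale (limma adjusted p = 0.0418).

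Beside Apobec3, Nptxr, which encodes a neuronal pentraxin receptor, fell by 2.66 (limma adjusted p = 0.0210), while Cbx6, Rpl3 and Snord83b had 0.25, 0.03 and 0.32 without a call. Near Adar, 4632404H12Rik rose by 0.73 (limma adjusted p = 0.0552), and Pmvk, Pbxip1 and Chrnb2 were not called. None of Gabarapl2, Tmem231, Kars and Terf2ip around Adat1 was called by limma, with log2 fold changes of 0.09 to 1.04. Of the tested genes closest to Adat2, Vta1, which lies 1102 kb away, fell by 0.33 (limma adjusted p = 0.0852). Fuca2 and Hivep2 were not called, and Pex3, which shares 249 exonic bases with Adat2 on the opposite strand, had -0.08.

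**Figure D4:**
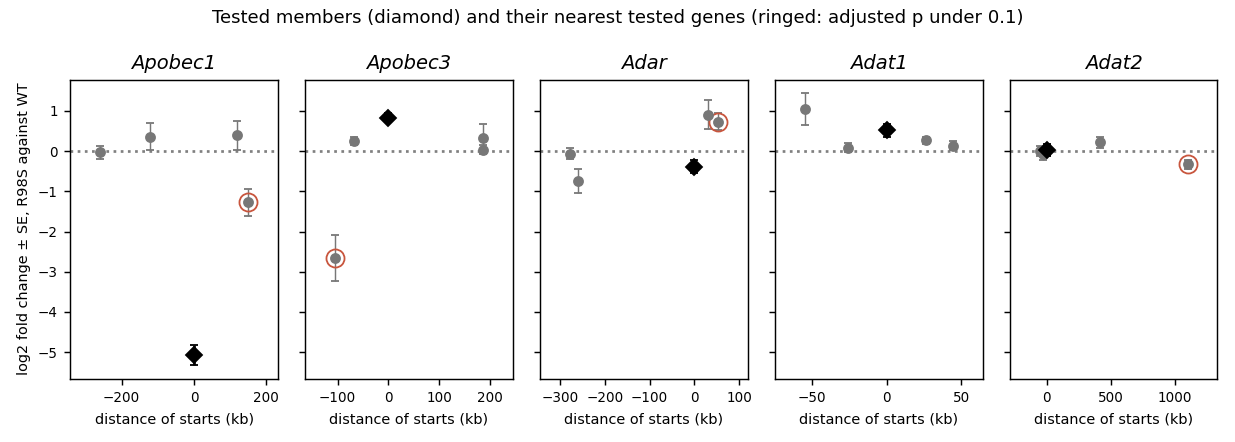
Log2 fold change of the 5 tested members (diamonds) and of the 2 nearest tested genes on each side (grey, ringed where the adjusted p was under 0.1), by distance between starts in kb, with SE bars. Apobec1 lies at -5.07 between neighbours at 0.36 and 0.39, and Slc2a3 at -1.27 is the called gene near it.

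Relatives of these enzymes that deaminate free nucleosides, nucleotides or bases moved in both directions. Of 14 listed genes, 10 were tested, and 5 were called, 2 higher and 3 lower, beside 23.9% called over all genes tested, with a median log2 fold change of -0.11. Cytidine deaminase (Cda), which salvages pyrimidine nucleosides, fell with R98S. It had 248, 189 and 239 in WT and 54.4, 52.1 and 32.4 in R98S, a difference of -2.29 ± 0.26 on the log2 scale (limma adjusted p = 0.00199). Gda, the guanine deaminase, had 4208, 4934 and 4771 in WT and 2023, 2558 and 2185 in R98S, a difference of -1.04 (limma adjusted p = 0.00233). AMP deaminase 3 (Ampd3) fell by 0.94 (limma adjusted p = 0.0308). Adenosine deaminase (Ada), whose loss causes severe immunodeficiency, was higher in R98S, with 519, 675 and 541 against 158, 138 and 258 in WT. The difference was 1.69 ± 0.25 (limma adjusted p = 0.00582). Adal, an adenosine deaminase-like enzyme, rose by 0.84 (limma adjusted p = 0.00954). The groups did not overlap for these 5 called genes, nor for 37.3% of all genes tested. Adarb2, a brain ADAR without known activity, had 22.5, 12.9 and 22.0 in WT and 12.2, 20.4 and 19.4 in R98S.

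Among genes that regulate ADAR enzymes or bind double-stranded RNA with them, 11 were listed, all were tested and 1 was called. The share called over all genes tested was 23.9%. Wwp2, a ubiquitin ligase that lowers ADAR2 protein, fell by 0.41 (limma adjusted p = 0.0548), from 2398 ± 196 to 1803 ± 202. The RNA helicase Dhx9 had 11173, 10394 and 10195 in WT and 15810, 11352 and 14089 in R98S, and missed the threshold (log2 fold change 0.36, limma adjusted p = 0.108). edgeR called 2 genes of the list, Wwp2 and Dhx9, and DESeq2 called 3. In limma none was called without WT clone 28 or 29 or R98S clone 11, and 3 were called without R98S clone 13.

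Sensors of double-stranded RNA, which ADAR keeps from cellular RNA, were tested for 9 of 12 genes with 2 called. Over all genes tested 23.9% were called, so the count was near the background. Oas2, a synthetase that activates RNase L, rose from 24.6, 3.22 and 5.0 in WT to 99.5, 92.9 and 88.8 in R98S, a difference of 3.45 ± 0.62 (limma adjusted p = 0.0120), and it was called in every alternative tried. The kinase gene Eif2ak2, encoding PKR, fell by 0.37 (limma adjusted p = 0.0797), a call lost in edgeR and in each of 5 of the 6 fits without 1 clone, that without R98S clone 11 being the exception. DESeq2 called 3 sensors, with Dhx58 as the third, at 14 to 40 in WT and 31.0 to 132 in R98S. Without R98S clone 11 limma called 3, with Oas1g. Ifih1, which encodes MDA5, had no more than 3 reads in any library. The median log2 fold change of the tested sensors was 0.31.

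Interferon-stimulated genes gave 1 call among 9 tested of 12 listed, beside 23.9% called over all genes tested. Stat2, the signalling factor of type I interferon, fell by 0.86 (limma adjusted p = 0.0132), with 944, 1038 and 860 in WT and 457, 635 and 485 in R98S. Isg15 had 4.10, 25.8 and 4.0 in WT and 27.2, 27.6 and 14.8 in R98S without a call, and Usp18 had 27.6, 26.9 and 82.1 against 14.1, 20.4 and 25. Without WT clone 29, Isg15 was called as well. The median of the list was -0.23. Oas2, which interferon also induces, is counted with the sensors above.

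Enzymes that remove uracil or repair the resulting mismatch were all expressed. Of 12, 3 were called, beside 23.9% of all genes tested, so the share called was near the background. These 3 were higher in R98S, and the list median was 0.16. Ung, the main uracil DNA glycosylase, had 330, 279 and 399 in WT and 479, 516 and 520 in R98S, 0.60 higher on the log2 scale (limma adjusted p = 0.0449). Apex1, the endonuclease that cuts at the abasic site, rose by 0.87 (limma adjusted p = 0.0239), from 543 ± 81.2 to 1005 ± 240. The exonuclease gene Exo1 rose by 0.60 (limma adjusted p = 0.0363). The other 9 were not called. Without WT clone 28 or 29, Apex1 was the 1 gene still called.

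Restriction factors of retroelements other than Apobec3 gave no call among 9 tested of 10 listed in limma, beside 23.9% called over all genes tested. An unadjusted p under 0.05 was seen for 1 gene, with 0 calls in edgeR and 1 in DESeq2. That gene, Bst2 (tetherin), was also called by limma without R98S clone 11, and had 859, 1080 and 1131 in WT and 1037, 1746 and 1649 in R98S. Samhd1, which hydrolyses nucleotides needed for reverse transcription, had 2391, 2266 and 2380 in WT and 1957, 2773 and 1973 in R98S. Trex1 was listed at 0 in every library, and whether this reflects the cells or the counting was not tested.

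Transcripts known from other tissues as targets of these editors were looked at for their level alone. None of the 10 tested of 17 listed was called in limma, beside 23.9% called over all genes tested. Of the list, 1 (Blcap) had an unadjusted p under 0.05, edgeR called 0 and DESeq2 called 1, Flna. Without WT clone 36, 3 were called in limma, Azin1, Flna and Blcap. The classical APOBEC1 target Apob had 6.14, 6.45 and 5.0 in WT and 9.38, 3.06 and 5.55 in R98S, near the floor, while B2m, an edited transcript of macrophages, had 6512 to 6961 in WT and 6585 to 8208 in R98S. Of the ADAR targets, Azin1 had 10598, 9462 and 6342 in WT and 6999, 7971 and 7815 in R98S. Flna had 23399, 25168 and 9773 in WT and 12979, 7460 and 10906 in R98S, so that WT clone 36 lay among the R98S clones as it did for Adar. Gria2 and Htr2c, edited in neurons, had at most 9.67.

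**Figure D5:**
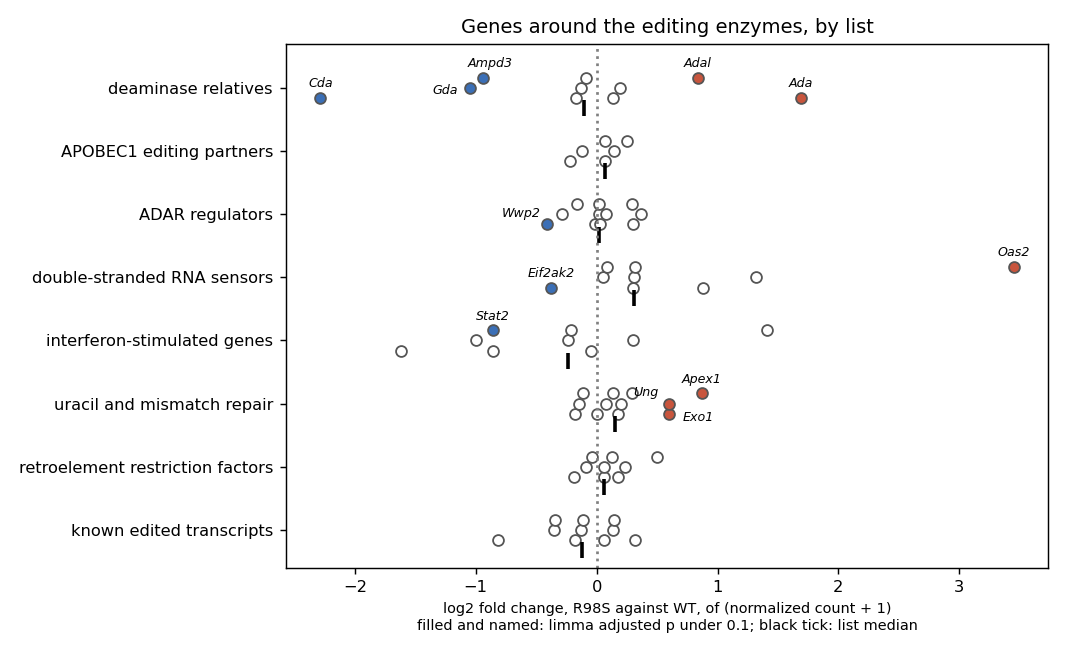
Log2 fold change of R98S against WT for each tested gene of the 8 lists, filled where the limma adjusted p was under 0.1 and open otherwise, with a black tick at each list's median. Called genes are spread to both sides for the deaminase relatives (Ada at 1.69, Cda at -2.29), and Oas2 at 3.45 stands apart among the sensors.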

How the data were processed

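Per the labels and the study's methods, the authors removed reads of ribosomal and transfer RNA with Bowtie2, aligned the others with TopHat to mm10 (GRCm38), filtered them with SAMtools and counted them per gene with HTSeq. As deposited, each value is a normalised signal, the read count that the authors divided by a DESeq2 size factor. The gene annotation and the strand setting of the counting are not given in the sources used here. Reads that fit several places are lost at the mapping filter, which lowers genes with near-identical copies.

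Dividing by the smallest step of a library gave whole numbers for 100% of its nonzero values (tolerance 0.01), and the reads recovered in this way numbered 21786776 to 24204991 per library. The test was limma 3.58.1 (R 4.3.3) on log2(normalised count + 1) with an intensity trend, two-sided, over the 11550 genes with a mean of at least 10, with Benjamini-Hochberg adjustment and a threshold of 0.1. Values with ± are SD over 3 clones, or SE for a log2 fold change. A group at or under 3 reads in every library was taken as at the floor. No ratio was given where both groups were at the floor. Exact binomial 95% intervals of read ratios cover counting error only. The fit was tested on simulated data.

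Symbols were matched to GENCODE M21 (GRCm38), 36776 of 41255 to 1 gene, for position, length, neighbours and overlaps. Promoters came from RefSeq (GRCm38.p6). A planned search of protein motifs was not run.

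The 9 members, the 8 gene lists and the 7 marker lists were chosen with earlier results of these data known. Named are all members, Rpl10, the genes of each list past the threshold (at most 6), the 3 genes most like Apobec1, and 2 tested neighbours on each side. Any other gene was named after its values were seen. The values of 2 listed genes, which stay in the counts of their lists, are not reported here. The alternatives were pseudocounts of 0.5 and 5, no expression filter, a mean of at least 50, equal library totals, equal upper quartiles, no trend, an adjusted p of 0.05, leaving out each clone, and edgeR 4.0.16 (quasi-likelihood, TMM) and DESeq2 1.42.0 (Wald) on the recovered reads.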

Additional observations from a re-analysis of the deposited data

How the results depend on the processing

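No paired analysis was possible because the clone numbers are not shared between genotypes. The 5 called deaminase relatives were called in all 16 alternatives. The members called numbered 2 to 4, from which nothing is read, since they were selected on this contrast. The log2 fold change of Adat2 was between -0.01 and 0.06 with 1 clone left out. The log2 fold change of Apobec1 was -4.63 with a pseudocount of 5 and -5.22 to -4.97 without 1 clone. Over all genes, 1722 were called at an adjusted p of 0.05, and 1327 to 3219 with 1 clone left out (WT clone 28 for the lower count, R98S clone 13 for the higher).

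With scaling to the same upper quartile the APOBEC1 partners gave 1 call (Hnrnpab), the ADAR regulators 2 and the double-stranded RNA sensors 1. Scaling to the same total gave 2 ADAR regulators. edgeR gave 2 ADAR regulators and 1 sensor. DESeq2 gave 1 APOBEC1 partner, 3 ADAR regulators, 3 sensors, 1 restriction factor and 1 edited transcript. No filter, no trend and an adjusted p of 0.05 each left 1 sensor, and the last left 0 ADAR regulators. Without 1 clone, calls ranged from 0 to 3 for ADAR regulators, 1 to 3 for sensors, 1 to 2 for interferon-stimulated genes, 1 to 4 for uracil and mismatch repair, 0 to 1 for restriction factors and 0 to 3 for edited transcripts. The cause of these shifts was not tested. With 3 clones a group, the spread between clones limits the precision of the expressed genes, and depth limits Apobec2, A1cf, Rbm47 and Adarb1.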
